A study of Mus musculus with 4 samples.

Results

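The genes examined were 10 that govern how pyruvate enters the mitochondrion and becomes acetyl-CoA, out of 19030 genes in the deposited expression table, and each was found by its symbol. They comprised the carrier subunits Mpc1 and Mpc2, the pyruvate dehydrogenase subunits Pdha1 and Dlat, the kinases Pdk1, Pdk2, Pdk3 and Pdk4, and the phosphatases Pdp1 and Pdp2. Their levels were compared in inguinal WAT (ingWAT), white fat under the skin in which heat-producing beige adipocytes can appear in the cold, of C57BL/6 mice aged 3 months and housed at 4°C. The control mice (Ctrl) carried floxed Oct3 alleles without Cre, and in the Oct3-deficient mice (cKO) the same floxed alleles were deleted by Adiponectin-Cre, which is active in adipocytes and leaves Oct3 in the other cells of the depot. Oct3, encoded by Slc22a3, is a transporter that takes up norepinephrine and other monoamines. Each genotype had 2 libraries. The labels do not give how many mice went into a library, so the p-values measure only the spread between these libraries, which may be technical.

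Pyruvate made by glycolysis crosses the inner mitochondrial membrane through the mitochondrial pyruvate carrier, which is built from MPC1 and MPC2. In the matrix the pyruvate dehydrogenase complex decarboxylates it to acetyl-CoA, the fuel of the citric acid cycle and a precursor of fatty acids. Pyruvate dehydrogenase kinases phosphorylate the E1α subunit, encoded by Pdha1, and switch the complex off, and pyruvate dehydrogenase phosphatases remove the phosphates and switch it on again. Among the kinases, PDK4 is known for its rise in fasting and when fatty acids are the main fuel.

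In cKO ingWAT 7 of the 10 genes were higher than in Ctrl, none passed the test as lower, and 3 did not pass it. Pdk4 stood apart in size, with a mean level 3.14 times that of Ctrl, while the other genes that rose lay between 1.26 and 1.41 times. Over all 12658 genes tested 12.0% were called higher, 13.8% lower and 25.8% in either direction, at an adjusted p under 0.05 by limma on log2(FPKM + 1). FPKM is a level scaled to transcript length and library size, so that genes can be set beside each other. All 10 genes passed the filter of a mean of at least 1 FPKM. Both cKO libraries were above both Ctrl libraries for 8 of the 10 genes and below them for 1, against 31.9% and 34.6% of all genes tested, and the median log2 fold change was 0.36 for the 10 genes and -0.01 for all genes. Leaving out a library moved the count of 7 by over 1.5 times in 3 of 4 cases, to 2 without Ctrl replicate 1, 4 without Ctrl replicate 2 and 3 without cKO replicate 1. Pdk2 and Pdk4 passed the test in each of 12 alternative analyses, and they were the only members of which this held.

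**Figure D1:**
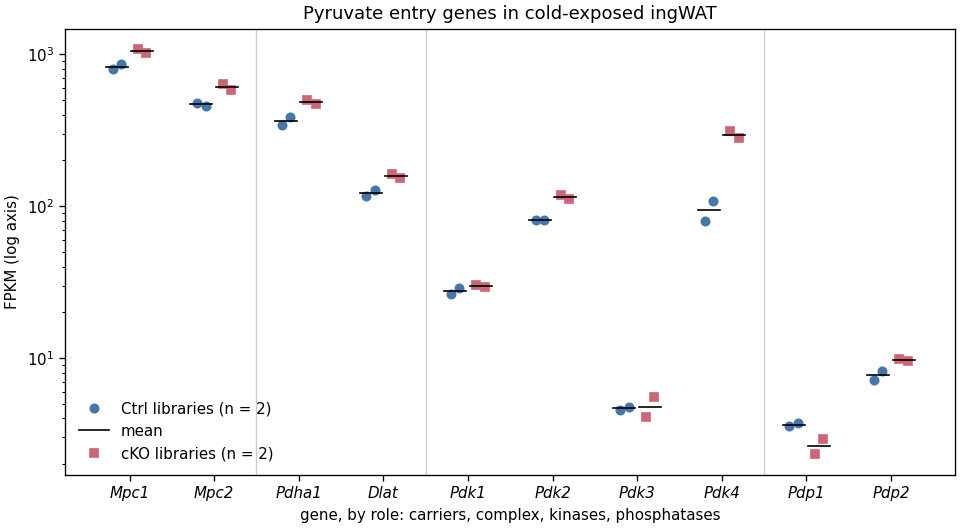
FPKM of the 10 pyruvate entry genes on a log axis, with 1 point for each library and a line at the mean of the 2 libraries of a genotype. Pdk4 moved from the level of Pdk2 in Ctrl (means 94.1 and 81.5) to 295 in cKO, above Dlat, while Pdk3 overlapped between genotypes.

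The libraries held an estimated 17350000 to 18100000 reads. Slc22a3 was 16.95 and 17.68 FPKM in Ctrl and 9.07 and 9.5 in cKO, which is the direction of the labels, with transcript still present in cKO. A gene-level value does not show the floxed exon by itself, and 13.8% of all genes tested were called lower. The tissue label was checked against marker genes: the summed FPKM of 8 markers listed for white adipocytes was 22788 and 23026 in Ctrl and 18999 and 19178 in cKO. Whether these markers tell white from brown or beige adipocytes was not examined. Of these markers 3 were lower in cKO, Lep (0.372 times the Ctrl mean), Retn and Adipoq, and 5 did not pass the test. Fabp4, which did not pass, made up most of the summed FPKM, with 15874 and 16398 in Ctrl and 13456 and 13616 in cKO. Other cell types moved with genotype. The 11 tested of 13 skeletal muscle markers were all lower in cKO, and the list summed to 2511 and 1687 FPKM in Ctrl and 11.9 and 9.35 in cKO, with the defining genes Ckm, Acta1 and Myh4 at 2 FPKM or below in cKO. All 8 brown and beige adipocyte markers were higher (median log2 fold change 1.64), as were 4 of 4 B cell and 3 of 4 T cell markers, and 4 of 4 fibroblast progenitor markers were lower. Macrophage markers were mixed, with 1 of 5 higher and 2 lower, and 2 of 4 endothelial markers were lower. Of 4 keratinocyte and epithelial markers 3 were listed, none was tested, and they summed to between 0.36 and 0.65 FPKM. The part of these cell types in the results was not tested. In bulk tissue fewer cells of a type and less RNA per cell cannot be told apart.

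The promoters of 3 kinases are shown because they set the gene that moved most (Pdk4) and the other gene that rose in every alternative (Pdk2) beside a kinase whose genotypes overlapped (Pdk3). Each line gives the 250 bases before the transcription start from RefSeq, build GRCm38.p6, 5′ to 3′ on the gene's strand, which is the minus strand for all 3, with the CCAAT box in capitals in either orientation (ATTGG where it lies on the other strand). The windows are chr6:5496279-5496528 for Pdk4, chr11:95041372-95041621 for Pdk2 and chrX:93832151-93832400 for Pdk3.
Pdk4: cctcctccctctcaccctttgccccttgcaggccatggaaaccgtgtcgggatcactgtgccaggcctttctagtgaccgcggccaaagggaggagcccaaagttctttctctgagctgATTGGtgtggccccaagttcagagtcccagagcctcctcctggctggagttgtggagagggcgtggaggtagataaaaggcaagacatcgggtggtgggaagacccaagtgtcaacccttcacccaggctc
Pdk2: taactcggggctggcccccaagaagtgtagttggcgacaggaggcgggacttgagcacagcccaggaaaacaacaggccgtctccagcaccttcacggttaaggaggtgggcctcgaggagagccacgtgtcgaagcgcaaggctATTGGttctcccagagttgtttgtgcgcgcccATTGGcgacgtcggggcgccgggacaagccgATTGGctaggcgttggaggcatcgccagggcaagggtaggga
Pdk3: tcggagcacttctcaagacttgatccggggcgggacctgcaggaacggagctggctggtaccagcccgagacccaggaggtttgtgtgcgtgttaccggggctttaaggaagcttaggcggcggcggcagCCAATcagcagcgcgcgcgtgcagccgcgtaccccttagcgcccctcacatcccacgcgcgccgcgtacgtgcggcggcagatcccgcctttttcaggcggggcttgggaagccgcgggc
In these letters the Pdk4 window holds 1 CCAAT box, Pdk2 holds 3 and Pdk3 holds 1. The box was thus present in the windows shown for both kinases that rose and for Pdk3, which did not pass the test. The other RefSeq window of Pdk2 (chr11:95040876-95041125), which is not shown, held none, and neither window of Pdk1 held one. RefSeq windows of 250 bases before to 50 after the start were found for 9 of the 10 genes, 12 windows in all. CCAAT was found in 6 of the 12, against 37.4% of 32851 windows of all genes. The short cAMP response half-site TGACG was in 4 of the 12, those of Dlat, Pdha1, Pdk2 and Pdp2, against 20.8% of all windows. The full site TGACGTCA was in 0 of the 12 and in 1.79% of all, and the estrogen-related receptor site AAGGTCA was in 0 of the 12 and in 4.72%. Both strands were searched, TGACG lies within TGACGTCA, and the motifs were chosen after the expression values had been seen. A match is a description of the letters and not evidence of binding.

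Both subunits of the pyruvate carrier rose by a similar factor. Mpc1, at chr17:8283787-8297667, was 794 and 860 FPKM in the 2 Ctrl libraries and 1077 and 1015 in the cKO libraries. Its log2 fold change was 0.34 ± 0.0789 (SE, limma adjusted p = 0.0201), and its rank among all genes by mean FPKM went from 62 to 43. Mpc2, at chr1:165461260-165481218, was 477 and 456 FPKM in Ctrl and 638 and 583 in cKO, a log2 fold change of 0.39 ± 0.0735 (SE, limma adjusted p = 0.00937). For both genes the lower cKO library lay above the higher Ctrl library. The ratio of Mpc1 to Mpc2 FPKM was 1.67 and 1.89 in Ctrl and 1.69 and 1.74 in cKO, so the genotypes overlapped in the balance of the subunits. Mpc1 passed the test in 6 of its 12 alternatives. It did not pass without the filter (limma adjusted p = 0.0910) or with the replicate number as a block (limma adjusted p = 0.0679). It also lost its call without Ctrl replicate 1, Ctrl replicate 2 or cKO replicate 1, with log2 fold changes of 0.28, 0.40 and 0.30. Each of these fits left 1 library in a genotype, so a lost call need not mean a smaller change. Under quantile normalization neither subunit passed, with log2 fold changes of 0.21 for Mpc1 and 0.17 for Mpc2 (limma adjusted p = 0.0613 and 0.121). Mpc2 also lost its call without the filter, without Ctrl replicate 1 and without Ctrl replicate 2, and its adjusted p ran from 0.00366 to 0.121 over 12 alternatives.

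Of the enzyme complex, Pdha1 encodes the E1α subunit that the kinases phosphorylate, and Dlat encodes the E2 acetyltransferase core. Pdha1 (chrX:160122219-160138430) was 344 and 385 FPKM in Ctrl and 502 and 471 in cKO, with a log2 fold change of 0.42 ± 0.0782 (SE, limma adjusted p = 0.00893). Dlat (chr9:50634633-50659780) was 116 and 128 FPKM in Ctrl and 163 and 153 in cKO, with a log2 fold change of 0.37 ± 0.0688 (SE, limma adjusted p = 0.00844). Both genes were higher in each cKO library than in each Ctrl library. Under quantile normalization the log2 fold change of Pdha1 was 0.20 (limma adjusted p = 0.131). Both genes also lost their call without the filter, without Ctrl replicate 1 and without cKO replicate 1, and over 12 alternatives the limma adjusted p ran from 0.00282 to 0.131 for Pdha1 and from 0.00252 to 0.0927 for Dlat. The partner subunits outside the 10 genes also rose. Pdhb, the E1β subunit, had a log2 fold change of 0.33 ± 0.0749 (SE, limma adjusted p = 0.0176). Dld, the E3 dehydrogenase shared with other complexes, had 0.48 ± 0.0820 (SE, limma adjusted p = 0.00627), and Pdhx, which tethers E3 to the core, 0.41 ± 0.0607 (SE, limma adjusted p = 0.00343). All 5 subunit genes thus passed the test as higher, between 1.26 and 1.39 times the Ctrl mean. The proportions of the subunits lay close in the genotypes, though for both ratios given here each cKO library was above each Ctrl library. The ratio of Pdha1 to Dlat FPKM was 2.97 and 3.02 in Ctrl and 3.09 and 3.08 in cKO, and that of Pdha1 to Pdhb was 0.647 and 0.677 in Ctrl and 0.697 and 0.704 in cKO. Beside citrate synthase (Cs), the entry enzyme of the citric acid cycle, Pdha1 had a ratio of 0.998 and 1.01 in Ctrl. In cKO this ratio was 0.991 and 0.983, with each cKO library below each Ctrl library. With 2 libraries a group the smallest two-sided p of an exact permutation test is 0.333, so these ratios, like those below, are given as descriptions.

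**Figure D2:**
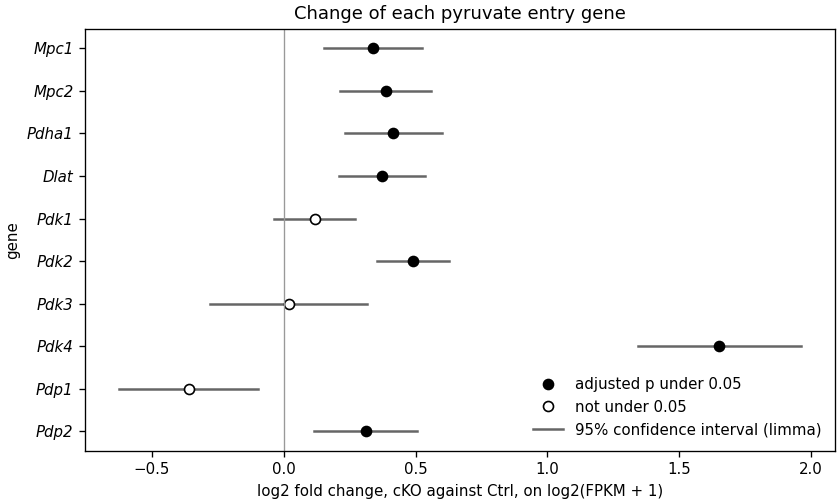
Log2 fold change of each of the 10 genes in cKO against Ctrl on log2(FPKM + 1), with 95% confidence intervals from limma (2 libraries a genotype). Filled points passed an adjusted p under 0.05, and Pdk4 (1.65) lies apart from the other 6 filled genes, which lie between 0.31 and 0.49.

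Of the 4 kinase genes Pdk4 and Pdk2 rose. Pdk4 (chr6:5483351-5496278) was 80.2 and 108 FPKM in Ctrl and 310 and 280 in cKO, and the gap between genotypes was wider than the spread within either. Its log2 fold change was 1.65 ± 0.131 (SE, 95% confidence interval 1.34 to 1.96, limma adjusted p = 0.000442), larger than that of 99.9% of the genes tested, and its rank by mean FPKM went from 823 to 285. The summed FPKM of the 8 brown and beige adipocyte markers was 1520 and 1799 in Ctrl and 4805 and 4058 in cKO. This was the same order of the 4 libraries as for Pdk4. That order was not particular to Pdk4: Mpc1, Pdha1, Dlat, Pdk1, Pdk2 and Pdp2 shared it, while Mpc2, Pdk3 and Pdp1 did not. The muscle marker sums, near 0 in cKO, were in the opposite order to Pdk4 within Ctrl and in the same order within cKO. The part of either cell type in the Pdk4 result was not tested. Pdk2 (chr11:95026258-95041371), a kinase expressed in most tissues, was 81.4 and 81.6 FPKM in Ctrl and 118 and 111 in cKO. Its log2 fold change was 0.49 ± 0.0575 (SE, 95% confidence interval 0.35 to 0.63, limma adjusted p = 0.00155). The intervals of Pdk4 and Pdk2 do not overlap.

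Pdk1 and Pdk3 did not pass the test. Pdk1 (chr2:71873215-71903858), known as a target of hypoxia signalling, was 26.4 and 28.8 FPKM in Ctrl and 30.4 and 29.5 in cKO. Both cKO libraries were above both Ctrl libraries, yet the log2 fold change was 0.12 ± 0.0645 (SE, 95% confidence interval -0.04 to 0.27, limma adjusted p = 0.231). Pdk3 (chrX:93764616-93832150) was 4.57 and 4.77 FPKM in Ctrl and 4.06 and 5.52 in cKO, so that its cKO libraries lay on either side of both Ctrl libraries. Its log2 fold change was 0.02 ± 0.126 (SE, 95% confidence interval -0.28 to 0.32, limma adjusted p = 0.928), with the sign turning to -0.01 when values were rescaled to TPM. Pdk3 rests on an estimated 146 reads at its lowest, a counting error of 8.28%, and its cKO libraries varied by 21.6% (coefficient of variation).

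The make-up of the kinase transcripts shifted with Pdk4. Summed over the 4 kinases the level was 193 and 223 FPKM in Ctrl and 463 and 427 in cKO. Pdk4 made up 41.6% and 48.4% of this sum in Ctrl and 67.0% and 65.7% in cKO, while the share of Pdk2 was 42.3% and 36.6% in Ctrl and 25.6% and 26.1% in cKO. In Ctrl the 2 genes were thus about level, with a ratio of Pdk4 to Pdk2 FPKM of 0.985 and 1.32, and in cKO the ratio was 2.62 and 2.52. The share of Pdk1 was 13.7% and 12.9% in Ctrl and 6.56% and 6.92% in cKO, and that of Pdk3 stayed under 2.4% in every library. Set against their substrate, Pdk4 FPKM was 0.233 and 0.281 of Pdha1 FPKM in Ctrl and 0.617 and 0.596 in cKO. For Pdk2 the same ratio was 0.237 and 0.212 in Ctrl and 0.236 and 0.237 in cKO, with the genotypes overlapping. The rise of Pdk4 thus exceeded that of Pdha1 in every pair of libraries. The ratio of all 4 kinases to Pdha1 was 0.560 and 0.579 in Ctrl and 0.922 and 0.907 in cKO. These are transcript ratios, and neither protein nor phosphorylation of the complex was measured here.

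**Figure D3:**
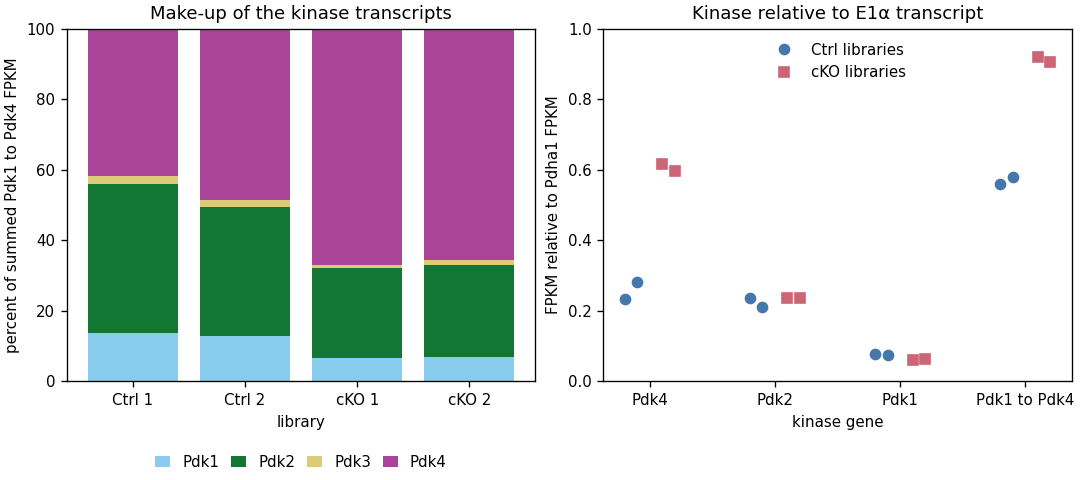
Left, share of each kinase in the summed Pdk1 to Pdk4 FPKM of each library. Right, FPKM of Pdk4, Pdk2, Pdk1 and their sum with Pdk3, relative to Pdha1 FPKM, with 1 point for each library. Pdk4 takes 41.6% and 48.4% of the sum in Ctrl and 67.0% and 65.7% in cKO, and its ratio to Pdha1 is higher in both cKO libraries, while that of Pdk2 overlaps.

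The phosphatases were the least abundant of the 10 genes with Pdk3, and neither kept one call over the alternatives. Pdp2 (chr8:104591472-104599026) was 7.17 and 8.22 FPKM in Ctrl and 9.91 and 9.62 in cKO, a log2 fold change of 0.31 ± 0.0824 (SE, limma adjusted p = 0.0323). Its call was lost in 5 of 12 alternatives, without the filter and on leaving out any one of the 4 libraries, and the limma adjusted p ran from 0.0194 to 0.218. Pdp1 (chr4:11958183-11966450) was 3.56 and 3.74 FPKM in Ctrl and 2.32 and 2.95 in cKO. Both cKO libraries were below both Ctrl libraries, and the log2 fold change was -0.36 ± 0.112 (SE, limma adjusted p = 0.0543), which misses the threshold. It passed as lower in 4 of 11 alternatives, among them the fit with the replicate number as a block (limma adjusted p = 0.0385), and the adjusted p of its alternatives ran from 0.0319 to 0.233. Pdp1 had the fewest reads of the 10, an estimated 100 at its lowest. The ratio of Pdp2 to Pdp1 FPKM was 2.01 and 2.20 in Ctrl and 4.27 and 3.26 in cKO, but the sum of both was 10.73 and 11.96 in Ctrl and 12.23 and 12.57 in cKO. The kinases together were 17.9 and 18.7 times as abundant as the phosphatases in Ctrl and 37.8 and 34.0 times in cKO. Pdpr, which encodes the regulatory subunit of the phosphatase, was 8.23 and 8.93 FPKM in Ctrl and 9.47 and 8.91 in cKO (log2 fold change 0.09 ± 0.0756, SE, limma adjusted p = 0.427).

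Within Ctrl the order of levels was Mpc1, Mpc2, Pdha1, Dlat, then Pdk4 and Pdk2, then Pdk1, Pdp2, Pdk3 and Pdp1. Only Pdk4 and Pdk2 overlapped as neighbours, because the Pdk2 libraries lay inside the range of the Pdk4 libraries. In cKO Pdk4 lay between Pdha1 and Dlat, and no neighbours in the order overlapped. Gene spans that overlap other genes were those of Mpc1, Pdha1, Pdk2 and Pdk3. The spans include introns, and overlap of exons was not examined. The library protocol gives no strand step, so reads from any shared exon could not be told apart by strand.

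The rest of the pyruvate pathway moved in both directions. The list of 22 other genes covered partners and cofactor supply of the complex and other makers and users of pyruvate or acetyl-CoA. It also held the kinase and phosphatase of the branched-chain complex. Of the 22 genes 20 were listed and tested, and 7 passed as higher and 3 as lower. Their median log2 fold change was 0.11. Besides the complex subunits the higher genes included citrate synthase Cs (0.44), pyruvate kinase Pkm (0.99) and lactate dehydrogenase Ldhb (1.13). Pkm, which makes pyruvate, was 516 and 585 FPKM in Ctrl and 1204 and 985 in cKO. Ldhb was 95.6 and 122 FPKM in Ctrl and 261 and 217 in cKO (limma adjusted p = 0.00139), whereas Ldha, the subunit that favours lactate production, was 823 and 841 in Ctrl and 932 and 867 in cKO and did not pass (limma adjusted p = 0.312). The ratio of Ldha to Ldhb FPKM was accordingly 8.60 and 6.90 in Ctrl and 3.57 and 4.0 in cKO. The 3 lower genes encode other enzymes that consume or make pyruvate. Pyruvate carboxylase Pcx, which turns it to oxaloacetate, was 443 and 426 FPKM in Ctrl and 316 and 320 in cKO, a log2 fold change of -0.45 ± 0.0612 (SE, limma adjusted p = 0.00268). The alanine transaminases Gpt and Gpt2, which interconvert alanine and pyruvate, had log2 fold changes of -0.67 and -0.66 (limma adjusted p = 0.000992 and 0.00102). Without Ctrl replicate 1 the count of 10 called genes in this list was 5.

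**Figure D4:**
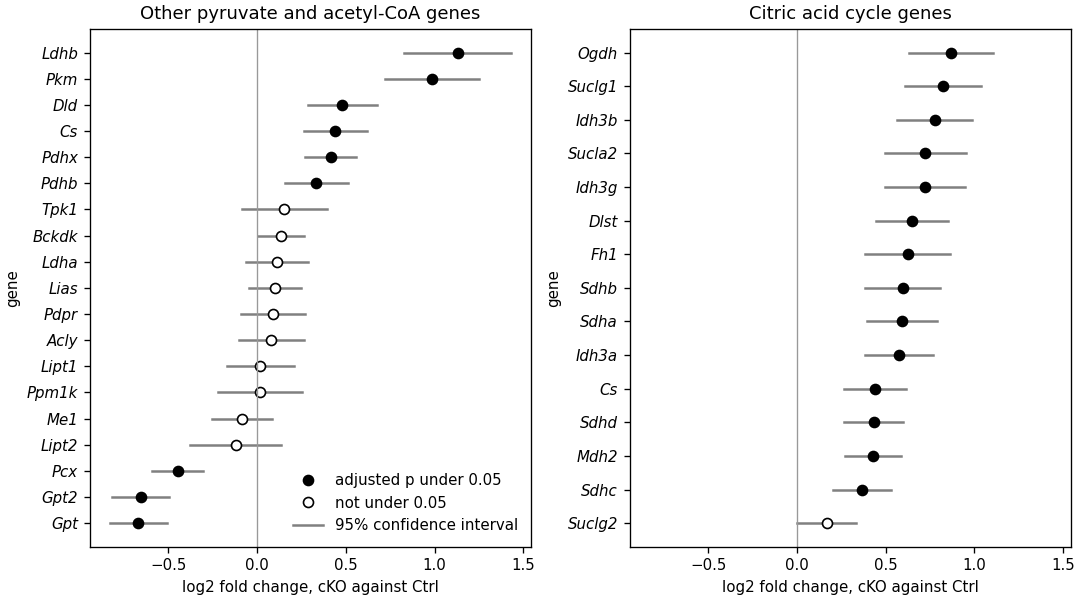
Log2 fold change in cKO against Ctrl with 95% confidence intervals from limma, for 19 other pyruvate and acetyl-CoA genes (left) and 15 citric acid cycle genes (right); Cs is in both. Filled points passed an adjusted p under 0.05: 6 higher and 3 lower on the left, and 14 higher on the right.

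Citric acid cycle genes, which take over the acetyl-CoA, were mostly higher. Of 16 genes 15 passed as higher and 0 as lower. The median of their log2 fold changes was 0.61, and they ran from 0.17 for Suclg2, the GTP-forming succinyl-CoA ligase subunit and the gene that did not pass (limma adjusted p = 0.129), to 0.87 for Ogdh, the E1 subunit of oxoglutarate dehydrogenase. The 5 subunit genes of the pyruvate dehydrogenase complex, with a median of 0.41, lay inside this range, and Pdk4 lay above its upper end. Of 15 genes for transcription factors and coactivators that act on these pathways 14 were tested, 6 passed as higher and 2 as lower. On log2(FPKM + 1), which shrinks the change of low genes, the largest rise was that of Ppara, a nuclear receptor for fatty acids (log2 fold change 1.04 ± 0.133, SE, limma adjusted p = 0.00206). By the ratio of mean FPKM, Ppara (2.17), the coactivator Ppargc1a (2.16) and the orphan nuclear receptor Esrrg (2.15) were level. The largest fall was that of the glucocorticoid receptor Nr3c1 (-0.36 ± 0.0649, SE, limma adjusted p = 0.00794). All of these genes were measured in the same 4 libraries, so their changes are not independent of those of the 10 genes.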

How the data were processed

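RNA sequencing of ingWAT gave 1 library for each of 4 samples, 2 of Ctrl and 2 of cKO. The authors deposited gene-level FPKM values, and no scaling between libraries is stated. The submitters' processing notes name HISAT2 2.0.4, RSEM 1.2.12 and mm10, without saying what each did. Poly(A) RNA was read single-end, without a strand-marking step. No per-sample column was left unused (0).

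Groups were taken from the labels. Genes with a mean of at least 1 FPKM were compared on log2(FPKM + 1) with limma 3.58.1 (R 4.3.3; eBayes with a trend), with Benjamini-Hochberg adjustment over 12658 genes and a threshold of 0.05. On simulated data of 12658 genes for cKO against Ctrl, 100 of 100 genes changed by 0.5 and 100 of 100 changed by 1 (log2) were called, with 8 unchanged genes called. The simulated noise was normal, with its spread smoothed over genes of like level, and changes were placed only in genes above a low level. Differences in spread from gene to gene were thus left out, so these shares do not measure the power in the real data.

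The depth was estimated from the FPKM steps of 319 short RNA genes, no longer than 400 bases (36 bases taken off the length, up to 6 reads). Between 84.5% and 90.8% of these values were whole reads within 0.1, and the largest error in 4 simulated libraries was 1.46%. For most genes whole counts were not recoverable, so count tests were not used. Counting errors cover counting only.

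Promoters and coordinates are from RefSeq (GRCm38.p6). The alternatives were leaving the filter out, a pseudocount of 0.1, a mean of at least 5 FPKM, median-of-ratios scaling, quantile normalization, TPM rescaling, the replicate number as a block, no trend, and leaving out each library. A fit without 1 library sets 1 library against 2 and has less power, so calls lost there need not mean smaller changes. The genes named were the 10 members, every called gene of the pathway list with Pdhb, Dld, Pdhx and Pdpr, and the largest rise and fall with at most 2 more from each other list, except that 1 called pathway gene and 1 citric acid cycle gene are not reported here. Ldha and Fabp4, outside this rule, were named after their values were seen. The members and lists were chosen with earlier results of these data known. Python 3.11.15, pandas 2.3.3, numpy 2.4.6 and matplotlib 3.10.9 were used for the remaining steps.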

Additional observations from a re-analysis of the deposited data

How the results depend on the processing

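Over the alternatives the log2 fold changes of the 10 genes stayed on the same side of the threshold with the same sign in 89 cases, lost the call in 22, gained it in 4 and changed sign in 3. Without the filter 1762 genes were called in place of 3269, 2 members were higher in place of 7, and 6 pathway genes changed in place of 10. Quantile normalization left 4 members higher. Leaving out 1 library gave 877 to 2429 called genes, 2 to 6 members higher, 0 to 1 lower and 5 to 10 pathway genes, with the fewest without Ctrl replicate 1 (877) and then without Ctrl replicate 2 (1531) and cKO replicate 1 (2165). One member (1), Pdp1, was called lower under median-of-ratios scaling, TPM rescaling, the replicate block and without cKO replicate 2. Pdk3 changed sign under TPM rescaling (-0.0089), without Ctrl replicate 1 (-0.0066) and without cKO replicate 2 (-0.16), within a leave-one-out range of -0.16 to 0.20. The labels do not say whether same-numbered libraries share a litter, day or batch, and this was not tested. The deviations of same-numbered libraries from their group means correlated at 0.01. With the replicate block 3383 genes were called, 6 members were higher and 1 lower. Depth limits Pdp1 and Pdk3 most, and both fell under the filter of 5 FPKM, so no value was had for them there. The causes of these shifts were not tested.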
